A study of Homo sapiens with 12 samples.

Results

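The genes described here are 10 genes of WNT/beta-catenin signalling, CTNNB1, TCF7, TCF7L2, LGR5, ASCL2, MYC, AXIN2, NKD1, RNF43 and ZNRF3, taken as all probe sets whose platform gene symbol is one of these names. They comprise 24 of the 54675 probe sets on the array and 9 of the 19775 genes with a probe set of their own, since TCF7 was not analysed here. Of the 24 probe sets, 19 reached a mean log2 value of 6 in at least 1 group, and 7 of the genes were tested. LGR5 and ASCL2 lay below that level in every group.

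In canonical WNT signalling, a secreted WNT ligand binds a Frizzled receptor and stops a complex of APC, AXIN and GSK3 proteins from marking beta-catenin for destruction, so that beta-catenin reaches the nucleus and activates genes together with TCF/LEF factors. In the colon this signal keeps crypt stem cells dividing, and most colorectal tumours carry a mutation that holds it on. CTNNB1 and TCF7L2 encode the proteins that carry the signal, and the other members are genes that it is known to induce, several of which feed back on it.

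RNA was measured on Affymetrix GeneChip arrays in HCT116, a human colorectal cancer line that carries an oncogenic RAS allele and a mutant CTNNB1, and in Hke3 and Hkh-2, clonal lines derived from it by homologous recombination at the RAS allele. There were 12 arrays in 4 groups of 3. Vehicle was given to 1 group of HCT116 control cells and doxycycline at 25 ng/ml to another, and the Hke3 and Hkh-2 lines make up the rest. The mutant CTNNB1 is a trait of the parental line, so it is shared by all 4 groups. Collection of HCT116 control cells was on day 3, and whether they carried a control hairpin or were parental cells is not given in the sources used here. The methods call the mutant RAS allele deleted in the recombined lines, while a supplement calls it replaced by wild type. The methods describe the culture of the lines as basal, apart from the cells on the doxycycline schedule, so line, clone and culture cannot be told apart. The methods give each condition as run in triplicate and do not say whether these were separate cultures, so a p-value here reflects variation among arrays that could be technical.

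Values are log2 values made by the authors with RMA, and the brightest probe set on average stood for a gene. Medians of the arrays lay between 5.80 and 5.86, and r across probe sets was between 0.993 and 0.998 for any pair of arrays in a group. Replicate 2 of the vehicle group and replicate 3 of Hke3 deviated from their groups in a shared way (r = 0.683 across genes) and are called the arrays that stood apart. Of 12 markers of colon epithelium, 9 had a group mean of at least 6 in every group, while CDH17, LGALS4 and GPA33 were under 6 in all of them. Of markers of other cell types, PTPRC (blood cells), CDH5 and KDR (endothelium) and LUM (fibroblasts) were under 6 throughout. CD3E (6.04 to 6.18), PECAM1 (6.56 to 6.86) and COL1A1 (8.19 to 8.43) were above it in every group. DCN, like COL1A1 a fibroblast marker, was not under 6 in any group. Both endothelial markers tested, PECAM1 (0.24 and 0.29) and VWF (at least 0.35 against each line), were higher in vehicle than in Hke3 and Hkh-2, and the part of this in the results was not tested. COL3A1, a collagen gene of fibroblasts, had a mean of 6.73 in Hkh-2 and of 4.45 to 4.49 elsewhere. Summed over the 6 fibroblast markers, the log2 values of an array lay between 34.4 and 35.2 in Hkh-2 and between 31.9 and 33.5 in the other groups. Over the 12 epithelial markers they lay between 111.7 and 111.9 in Hkh-2 and between 106.5 and 108.8 elsewhere. The part of either in the results for Hkh-2 was not tested. In such bulk RNA, a smaller share of expressing cells and less RNA per cell cannot be told apart.

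Each line was compared with the HCT116 vehicle arrays, which both comparisons share, and the lines were compared with each other. Members did not move as 1 group. Against Hke3, 2 of the 7 members tested were higher in HCT116 (MYC and TCF7L2) and 1 was lower (AXIN2) at an adjusted p under 0.05 from limma, while over all 12852 genes tested 47.8% passed, 24.6% as higher and 23.2% as lower. Against Hkh-2, 1 member was higher in HCT116 (TCF7L2) and 1 was lower (ZNRF3), beside 36% of all genes, 14.3% as higher and 21.7% as lower. Between the lines, 1 member was higher in Hke3 (AXIN2) and 2 were lower (MYC and ZNRF3), beside 39.8% of all genes, 16.3% as higher and 23.5% as lower. The share of members that passed was therefore near or below that of all genes. The median absolute log2 difference of the members was 0.21 against Hke3, 0.10 against Hkh-2 and 0.29 between the lines, and that of all genes was 0.25, 0.19 and 0.21. The plot of member values by array shows that TCF7L2 was the tested member with both lines below HCT116, that MYC and AXIN2 were set apart in Hke3, and that ZNRF3 was set apart in Hkh-2.

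**Figure D1:**
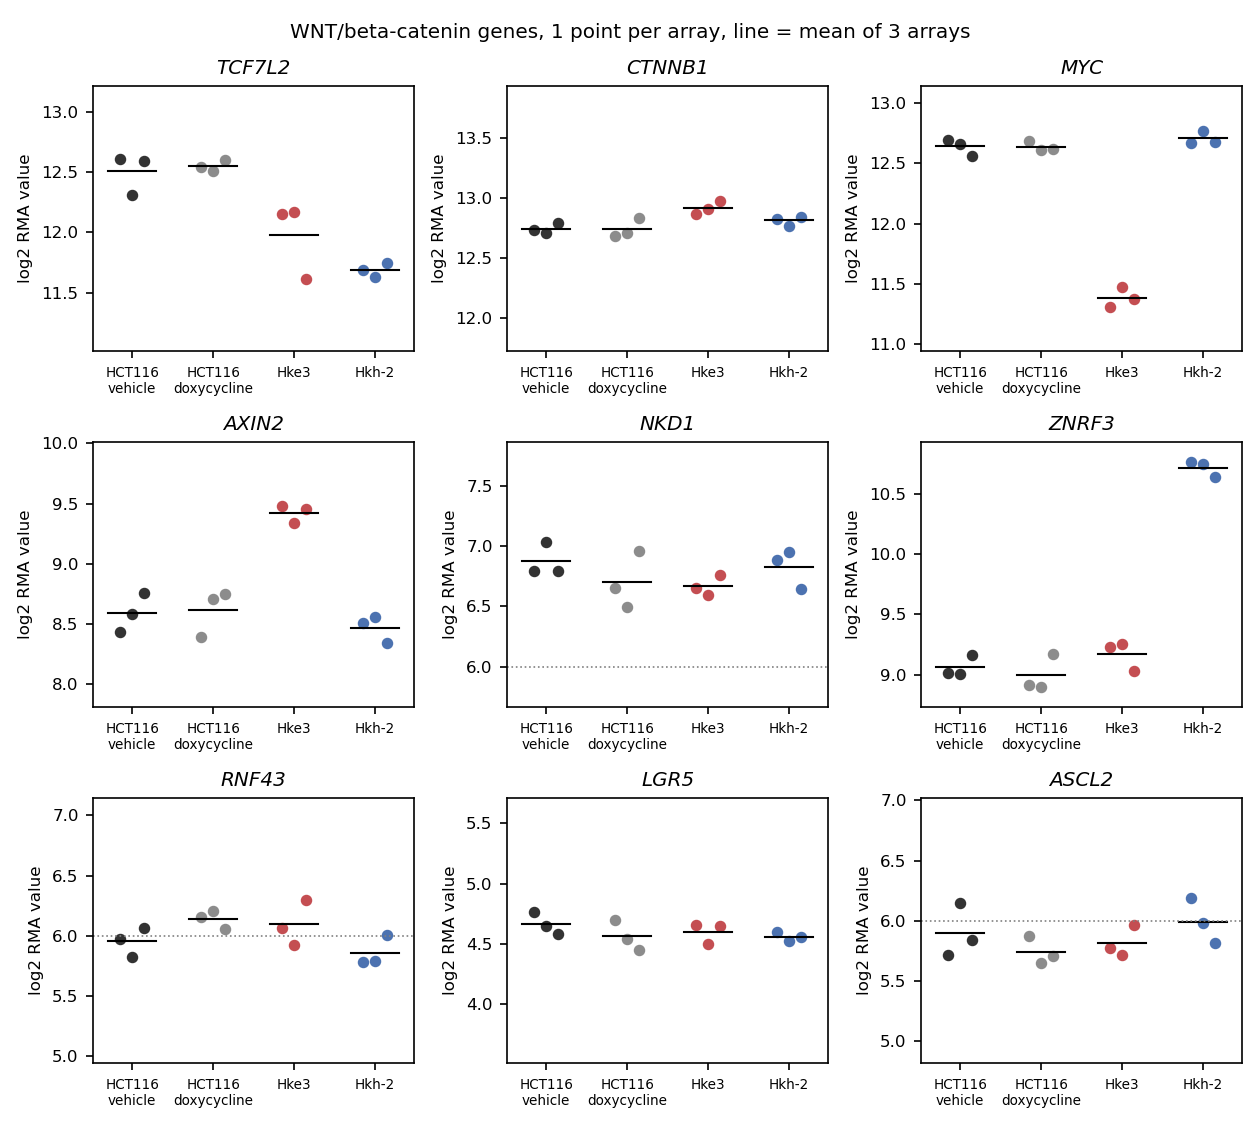
Log2 RMA value (y axis) of the 9 measured members in each of the 12 arrays, with 1 point per array, a line at the mean of 3 arrays and a dotted line at 6 where it falls in the range. MYC lay between 11.31 and 11.48 in Hke3 and between 12.56 and 12.77 in the other groups, and ZNRF3 lay between 10.64 and 10.76 in Hkh-2 and between 8.89 and 9.25 elsewhere.

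TCF7L2, the main TCF factor of the colon and the DNA-binding partner of beta-catenin, was higher in HCT116 than in either line. The probe set that represents it, 212761_at, read 12.61, 12.31 and 12.59 in vehicle, 12.54, 12.51 and 12.60 with doxycycline, 12.15, 12.17 and 11.61 in Hke3, and 11.69, 11.63 and 11.74 in Hkh-2. All HCT116 arrays lay above all arrays of both lines, and the Hke3 and Hkh-2 arrays overlapped through Hke3 replicate 3. The log2 difference, vehicle minus line, was 0.53 (SE 0.132, 1.44-fold, limma adjusted p = 0.00532) against Hke3 and 0.82 (SE 0.132, 1.76-fold, limma adjusted p = 0.000314) against Hkh-2. The difference between the lines was 0.29 (95% interval 0.01 to 0.58) and did not pass (limma adjusted p = 0.0967). Without Hke3 replicate 3 it passed, at 0.47 (limma adjusted p = 0.00112), and the difference from Hke3 was then 0.35 (limma adjusted p = 0.00731).

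The 7 TCF7L2 probe sets measure different stretches of a gene with many splice forms. All had vehicle means above those of either line, with different sizes. Against each line, 6 of the 7 were called higher in HCT116. Over all 27344 probe sets tested, 44.8% passed against Hke3, 23.4% as higher and 21.4% as lower, and 35.6% passed against Hkh-2, 17% as higher and 18.6% as lower. Their differences ran from 0.53 to 1.53 against Hke3 and from 0.82 to 1.39 against Hkh-2. The remaining set, 236094_at, had differences of 0.24 and 0.28 that did not pass, at levels near 6. Its mean was 6.17 with doxycycline, 6.16 in Hke3 and 6.11 in Hkh-2. The difference from Hke3 was thus smallest, among the sets called, for the brightest set, and with the mean of all probe sets it was 0.86 (limma adjusted p = 1.85e-06). No TCF7L2 set passed between the lines, where 36% of all probe sets did. The sets did not share a sign there, with Hke3 minus Hkh-2 at -0.40 for 212762_s_at and 0.29 for 216511_s_at. Without Hke3 replicate 3, 4 of the 7 passed as higher in Hke3. In the other direction, 212762_s_at passed as lower in Hke3 without HCT116 control vehicle replicate 2 (-0.40, limma adjusted p = 0.00594). It also did so without both arrays that stood apart (-0.48, limma adjusted p = 0.00081).

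CTNNB1, which encodes beta-catenin itself, differed little between the groups. Its brightest probe set, 201533_at, had a mean of 12.75 ± 0.0413 in vehicle, 12.74 ± 0.0811 with doxycycline, 12.92 ± 0.0553 in Hke3 and 12.81 ± 0.0394 in Hkh-2 (SD, n = 3 arrays each). The difference, vehicle minus line, was -0.17 against Hke3 (95% interval -0.32 to -0.02, limma adjusted p = 0.0565) and -0.07 against Hkh-2 (95% interval -0.22 to 0.08, limma adjusted p = 0.489). The vehicle arrays lay below the Hke3 arrays without overlap. Against Hke3 the gene passed under 5 of 23 alternatives, with adjusted p between 0.0126 and 0.0454. A dimmer set, 1554411_at, read 9.21, 9.14 and 9.39 in vehicle, 8.93, 9.36 and 9.50 with doxycycline, 9.64, 9.67 and 9.63 in Hke3, and 9.81, 9.76 and 9.88 in Hkh-2. It was lower in vehicle, with differences of -0.40 (limma adjusted p = 0.0192) and -0.57 (limma adjusted p = 0.00304), the first of which did not pass without HCT116 control vehicle replicate 1 (limma adjusted p = 0.0553) or 2 (0.0659), or without Hke3 replicate 2 (0.0542). The third CTNNB1 set, 223679_at, had differences of the other sign, 0.19 and 0.14, that did not pass. Without HCT116 control vehicle replicate 2 these were 0.31 and 0.26 (limma adjusted p = 0.016 and 0.0385).

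**Figure D2:**
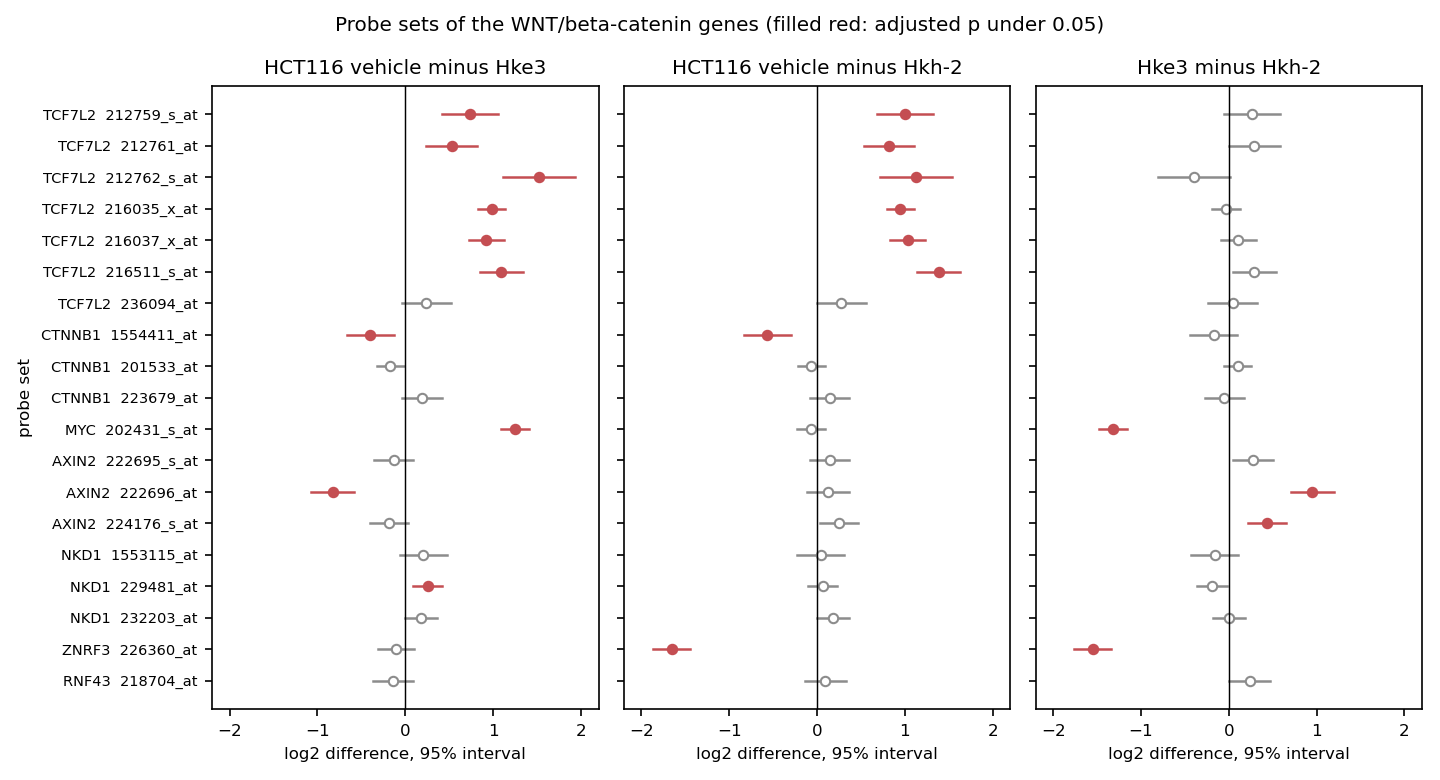
Log2 difference with its 95% interval (x axis) of the 19 member probe sets tested (y axis, gene and probe set) in 3 comparisons. Filled red points have an adjusted p under 0.05, which 6 of the 7 TCF7L2 sets have against each line and none has between the lines.

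MYC, the growth-promoting transcription factor that is the best known target of TCF/beta-catenin in colorectal cancer cells, was lower in Hke3 alone. Its probe set, 202431_s_at, read 12.69, 12.66 and 12.56 in vehicle, 12.69, 12.61 and 12.62 with doxycycline, 11.31, 11.48 and 11.37 in Hke3, and 12.67, 12.77 and 12.68 in Hkh-2. The Hke3 arrays lay more than 1 log2 unit below every other array, and the other 3 groups overlapped. The difference was 1.25 between vehicle and Hke3 (SE 0.0716, 2.38-fold, limma adjusted p = 2.19e-08). Against Hkh-2 it was -0.07 (95% interval -0.22 to 0.09, limma adjusted p = 0.505). The lines differed by -1.32 as Hke3 minus Hkh-2 (SE 0.0716, limma adjusted p = 1.74e-08). The gene has a single probe set here, and a name ending in _s_at marks one that can match several transcripts.

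Genes that MYC is known to induce for growth showed a similar split between the lines, with counts that depended on the processing. Their list spans ribosome and nucleotide synthesis, and also polyamine synthesis, a chaperonin and a cell cycle kinase. Of 12 measured genes of that list, 10 passed as higher in vehicle than in Hke3 and none as lower, with a median difference of 0.42 beside 0.04 over all genes. Against Hkh-2, 2 were higher and none was lower, with a median of 0.06 beside -0.02. Between the lines, none was higher in Hke3 and 7 were lower, with a median of -0.33 beside -0.06. Over all genes tested, 24.6% were higher in vehicle than in Hke3, 14.3% were higher in vehicle than in Hkh-2, and 23.5% were lower in Hke3 than in Hkh-2. The 2 of 12 against Hkh-2 are near the share of all genes. Without the 2 arrays that stood apart, the counts of the list were 10 higher against Hke3, 2 higher and 1 lower against Hkh-2, and 10 lower between the lines. With the mean of all probe sets they were 9 higher against Hke3, 4 higher against Hkh-2 and 5 lower between the lines. Over 23 alternatives these ran from 6 to 10, from 0 to 4 and from 4 to 10.

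Named members of the list show the sizes. FBL, the methyltransferase of small nucleolar particles that modify ribosomal RNA, had means of 12.94 ± 0.0408 in vehicle, 12.98 ± 0.0196 with doxycycline, 12.33 ± 0.0387 in Hke3 and 12.85 ± 0.0766 in Hkh-2 (SD, n = 3 arrays each). Its difference was 0.61 against Hke3 and 0.09 against Hkh-2, which did not pass. CAD, the enzyme that starts pyrimidine synthesis, was higher in HCT116 than in either line, by 1.07 and 0.63, or by 0.64 and 0.40 with the mean of its probe sets. The second value did not pass without HCT116 control vehicle replicate 2 (0.47, limma adjusted p = 0.0577) or Hkh-2 replicate 3 (0.54, limma adjusted p = 0.0655). SRM, which makes spermidine, had differences of 0.54 and -0.12, the first of which was 0.34 (limma adjusted p = 0.0733) without HCT116 control vehicle replicate 2. It was 0.45 without Hke3 replicate 1 (limma adjusted p = 0.0765) or 2 (0.0745). Without both arrays that stood apart, the difference from Hkh-2 was -0.33 and passed (limma adjusted p = 0.00149). POLR1B, a subunit of the polymerase that transcribes ribosomal RNA, had differences of 0.57 against Hke3 and -0.12 against Hkh-2. With the mean of its 4 probe sets the second of these was 0.36 (limma adjusted p = 0.00201), and 0.38 without the set that represents it.

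**Figure D3:**
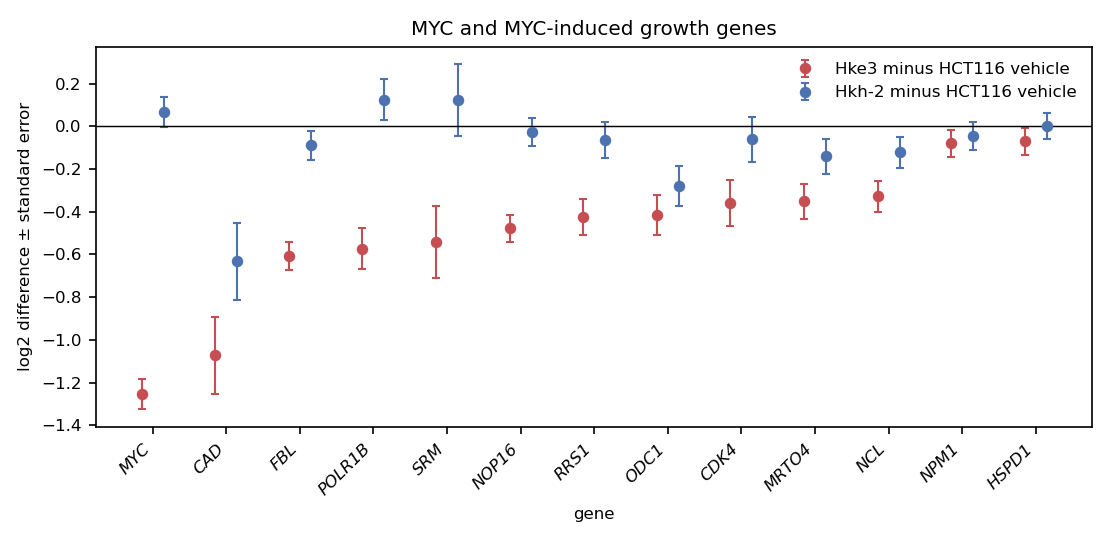
Log2 difference from HCT116 vehicle, line minus vehicle, with standard errors (y axis) for MYC and the 12 measured genes of the MYC-induced list (x axis), with Hke3 in red and Hkh-2 in blue. In Hke3, MYC and 10 of the 12 genes passed the test below 0, and in Hkh-2, CAD and ODC1 did.

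MYC acts as a dimer with MAX, and the MXD, MXI1 and MNT proteins compete with it for MAX. The list of these genes also holds paralogs of MYC and a relative of MAX. Of its 8 measured genes, vehicle was the higher for 4 against Hke3 and for 3 against Hkh-2, and the lower for none. Over all genes tested 24.6% and 14.3% were higher in vehicle. The medians of these 8 genes were 0.15 and 0.06, beside 0.04 and -0.02 over all genes. MXD1 had differences of 0.75 (Hke3) and 0.59 (Hkh-2), MNT of 0.51 and 0.36, and MXI1 of 0.42 and 0.23. The Hkh-2 value of MXD1 did not pass without HCT116 control vehicle replicate 1 (limma adjusted p = 0.052) or Hkh-2 replicate 2 (0.0713). With the mean of all probe sets, MXD1 had 0.47 and 0.32 and MNT had 0.27 and 0.19, the last of which did not pass (limma adjusted p = 0.12). Without both arrays that stood apart, MNT had 0.25 against Hke3. The Hkh-2 value of MXI1 did not pass without HCT116 control vehicle replicate 3 (limma adjusted p = 0.0809), Hkh-2 replicate 1 (0.0586) or Hkh-2 replicate 3 (0.113). That of MNT did not pass without any 1 of 8 arrays, 2 of them vehicle, 3 doxycycline and 3 Hkh-2 arrays (limma adjusted p between 0.0526 and 0.133). The difference of MAX from Hke3, 0.22 (limma adjusted p = 0.048), passed under 6 of 23 alternatives and turned to -0.13 with the mean of its probe sets.

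AXIN2, a scaffold of the destruction complex and a feedback inhibitor that beta-catenin induces in most tissues, was higher in Hke3. Its brightest set, 222696_at, read 8.44, 8.59 and 8.76 in vehicle, 8.39, 8.71 and 8.75 with doxycycline, 9.48, 9.34 and 9.45 in Hke3, and 8.51, 8.56 and 8.34 in Hkh-2. The Hke3 arrays lay above all others, and the other 3 groups overlapped. Hke3 exceeded vehicle by 0.83 (SE 0.11, 1.78-fold, limma adjusted p = 4.97e-05) and Hkh-2 by 0.95 (SE 0.11, 1.93-fold, limma adjusted p = 2.18e-05). The difference between vehicle and Hkh-2 was 0.12 (95% interval -0.11 to 0.36, limma adjusted p = 0.418).

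The size in AXIN2 depended on the probe set. Vehicle minus Hke3 was -0.13 for 222695_s_at and -0.19 for 224176_s_at, neither of which passed, and 224498_x_at lay under 6 in all groups. With the mean of all 4 sets, Hke3 exceeded vehicle by 0.31 (limma adjusted p = 0.00886) and Hkh-2 by 0.50 (limma adjusted p = 0.000492). Between the lines 224176_s_at passed as higher in Hke3 by 0.44 (limma adjusted p = 0.00457), and 222695_s_at, at 0.28, did not (limma adjusted p = 0.0538). MYC and AXIN2 thus moved in opposite directions in Hke3.

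NKD1, a cytoplasmic inhibitor that binds Dishevelled, did not pass in any comparison by the probe set that represents it. Its representative set, 1553115_at, had means between 6.67 and 6.87, and vehicle minus Hke3 was 0.21 (95% interval -0.06 to 0.47, limma adjusted p = 0.178). A dimmer set, 229481_at, passed against Hke3 (limma adjusted p = 0.0172), but both group means lay under 6, so no size is given. It did not pass without Hke3 replicate 2 (limma adjusted p = 0.0818) or with cyclic loess (0.0784). The third set, 232203_at, had vehicle minus line of 0.18 against Hke3 and 0.18 against Hkh-2, and did not pass. With the HCT116 arrays pooled it passed against Hke3 (0.24, limma adjusted p = 0.0154) and Hkh-2 (0.25, limma adjusted p = 0.0175). Without Hke3 replicate 1 it passed against Hke3 (limma adjusted p = 0.0338). All 3 sets had vehicle means above those of both lines. With doxycycline the mean of 1553115_at was 6.70, beside 6.67 in Hke3 and 6.83 in Hkh-2.

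ZNRF3 and RNF43 encode paired membrane ubiquitin ligases that remove Frizzled receptors from the cell surface. ZNRF3, by its single set 226360_at, read 9.01, 9.00 and 9.17 in vehicle, 8.92, 8.89 and 9.17 with doxycycline, 9.23, 9.25 and 9.03 in Hke3, and 10.76, 10.75 and 10.64 in Hkh-2. The Hkh-2 arrays lay more than 1 log2 unit above every other array, and the other 3 groups overlapped. Hkh-2 exceeded vehicle by 1.66 (SE 0.0943, 3.15-fold, limma adjusted p = 2.16e-08) and Hke3 by 1.55 (SE 0.0943, 2.93-fold, limma adjusted p = 5.67e-08). Vehicle minus Hke3 was -0.11 (95% interval -0.31 to 0.10, limma adjusted p = 0.363).

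RNF43 did not share this pattern, at levels too near background to give a size. Its group means lay between 5.86 in Hkh-2 and 6.14 with doxycycline, and the vehicle arrays overlapped those of each other group. Hke3 and Hkh-2 did not pass as different (limma adjusted p = 0.0898), and did without Hke3 replicate 2 (limma adjusted p = 0.0411).

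LGR5, the R-spondin receptor that marks crypt stem cells, had means of 4.56 to 4.67 for 210393_at and 2.84 to 3.03 for 213880_at. ASCL2, the transcription factor of those cells, had means of 5.74 to 5.99 for 229215_at and 2.98 to 3.21 for 207607_at. Neither stem cell gene was measured above the level of 6 in any group, and neither was tested.

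With doxycycline no member passed the test. None of the 7 members and none of the 12852 genes passed in limma, which is 0% called, and no gene passed under any of the 22 alternatives run on this comparison. At an unadjusted p under 0.05, 127 genes (0.988%) and no member passed. For the 6 members with both group means above 6, doxycycline minus vehicle lay between -0.17, for NKD1, and 0.04, for TCF7L2.

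The genes most like ZNRF3 and MYC over the 12 arrays were taken by the root mean square difference of log2 values, each minus its own mean. Nearest to ZNRF3 were MUC20 (0.103), MCCC1 (0.149) and ACSL5 (0.176), whose Hkh-2 means of 7.57, 9.65 and 8.99 stood above their vehicle means of 5.90, 8.22 and 6.99. Nearest to MYC were RPP40 (0.0869), ZNF586 (0.11) and TIMM17B (0.117), whose Hke3 means of 8.81, 5.45 and 7.20 stood below their vehicle means of 10.09, 6.85 and 8.49. These genes were picked for their likeness to the member, and the values are a description.

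Other genes of the pathway were taken by role from lists, and again moved in both directions, as the plot of the lists shows. Their counts are to be read beside the shares of all genes given above. Of 9 measured genes for WNT ligands and their secretion, vehicle was the higher for 3 and the lower for 3 against Hke3, and the higher for 2 and the lower for 2 against Hkh-2. WNT16 had means of 9.09 ± 0.135 in vehicle, 6.37 ± 0.093 in Hke3 and 7.11 ± 0.29 in Hkh-2 (SD, n = 3 arrays each), which makes differences of 2.72 and 1.98. Hke3 minus Hkh-2 was -0.74, but without any 1 Hke3 array a second, nearly as bright probe set stands for WNT16. The value is then between -1.93 and -2.14, with Hke3 near background. WNT7B went the other way, with differences of -0.64 and -0.71, the second of which was -0.45 without probe sets ending in _s_at or _x_at. WNT10A was higher in HCT116 by 0.47 and 0.43, but by 0.09 and 0.06, which did not pass, with its other probe set, and by 0.28 and 0.24 with their mean. WLS, which carries WNT proteins to the surface, had differences of -0.87 and -0.36. With its probe sets that do not end in _s_at or _x_at these were -0.30 (limma adjusted p = 0.0518) and 0.27 (limma adjusted p = 0.0864).

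**Figure D4:**
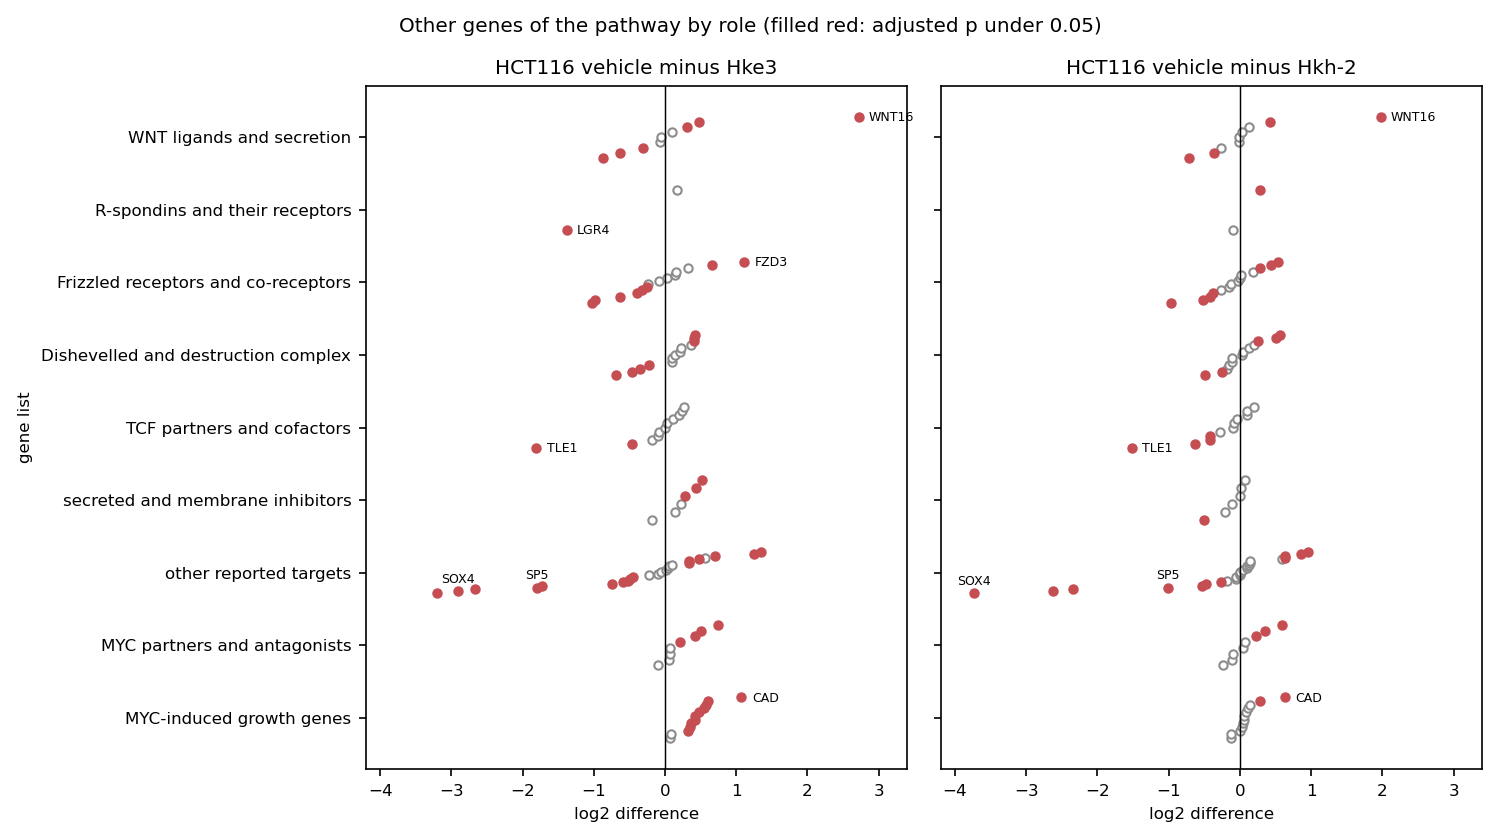
Log2 difference, HCT116 vehicle minus line (x axis), of the measured genes of 9 lists by role (y axis), with filled red points at an adjusted p under 0.05 and open points above it. Points are spread vertically for legibility, and WNT16, FZD3, TLE1, LGR4, SP5, SOX4 and CAD are named where they passed with a difference past 0.6.

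Among 14 measured Frizzled and co-receptor genes, vehicle was the higher for 2 and the lower for 6 against Hke3, and the higher for 3 and the lower for 4 against Hkh-2. FZD1 was lower in HCT116, with differences of -0.98 and -0.97, as was FZD2, with -1.03 and -0.42, while FZD3 was higher, with 1.11 and 0.53. With the mean of its probe sets FZD2 had -0.65 and -0.12, of which the second did not pass. ROR2, a WNT5A receptor, had differences of 0.67 and 0.18, of which the first passed. Of 2 measured R-spondin pathway genes, LGR4, a receptor related to LGR5, had means of 6.30 ± 0.242 in vehicle, 7.68 ± 0.154 in Hke3 and 6.39 ± 0.0369 in Hkh-2 (SD, n = 3 arrays each). Its difference from Hke3 was -1.38 (limma adjusted p = 1e-06) and from Hkh-2 -0.10 (limma adjusted p = 0.567). RSPO1 lay under 6 in all 3 of these groups, so that no size can be given for its call against Hkh-2.

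In the destruction complex and its regulators, with 13 measured genes, 3 passed as higher and 4 as lower in vehicle against Hke3, and 3 as higher and 2 as lower against Hkh-2. GSK3B, the kinase that marks beta-catenin, was lower, with differences of -0.69 and -0.49, or -0.41 and -0.24 with the mean of its probe sets. APC, its scaffold, had -0.46 and -0.18, of which the first passed and was -0.27 with that mean. TNKS2, a tankyrase that promotes loss of AXIN proteins, was higher by 0.42 and 0.56. Its paralog TNKS had 0.36 and 0.50, of which the second passed, though not without HCT116 control vehicle replicate 1 (limma adjusted p = 0.0682) or 3 (0.0548).

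Of 11 measured TCF partners and cofactors, none was higher in HCT116 in either comparison, while 2 were lower than in Hke3 and 4 lower than in Hkh-2. TLE1, a Groucho-type corepressor of TCF factors, had means of 8.27 ± 0.222 in vehicle, 10.08 ± 0.14 in Hke3 and 9.79 ± 0.141 in Hkh-2 (SD, n = 3 arrays each). Its differences of -1.81 and -1.52, or -1.09 and -0.94 with the mean of its probe sets, ran against those of TCF7L2. CREBBP, a coactivator, had -0.46 and -0.42, and with the mean of its probe sets the first was -0.12 and did not pass (limma adjusted p = 0.0909). The second was -0.17 with that mean and -0.28 without HCT116 control vehicle replicate 2, and did not pass without Hkh-2 replicate 3 (limma adjusted p = 0.0531). TCF7L1, with -0.10 and -0.41, and TLE2, with -0.09 and -0.64, passed against Hkh-2 and not against Hke3. Neither passed there without any 1 of HCT116 control vehicle replicates 1 and 3 and Hkh-2 replicates 1 and 2 (limma adjusted p between 0.0631 and 0.129). LEF1 lay between 5.64 and 5.76.

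Secreted and membrane inhibitors included 6 measured genes, of which 3 passed as higher in vehicle than in Hke3 and 1 as lower than in Hkh-2. DKK1, which blocks the LRP co-receptors, was bright in all groups, from 13.57 to 13.71, and did not pass. KREMEN1, a DKK receptor, had differences of 0.52 and -0.11, and NKD2 of 0.44 and -0.22, of which the first value of each passed. TPBG had 0.28 against Hke3, which turned to -0.0327 with the mean of its probe sets and did not pass without HCT116 control vehicle replicate 2 (limma adjusted p = 0.0829), Hke3 replicate 2 (0.097) or Hke3 replicate 3 (0.0647). NOTUM, an enzyme that inactivates WNT proteins, had -0.18 and -0.50, of which the second passed, though not without HCT116 control vehicle replicate 3 (limma adjusted p = 0.0719) or Hkh-2 replicate 3 (0.0794).

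Among 24 measured genes reported elsewhere as WNT targets, vehicle was the higher for 6 and the lower for 10 against Hke3, and the higher for 4 and the lower for 7 against Hkh-2. SOX4 was lower in HCT116, with means of 7.47 ± 0.286 in vehicle, 10.38 ± 0.432 in Hke3 and 11.21 ± 0.139 in Hkh-2 (SD, n = 3 arrays each) and differences of -2.90 and -3.74. JUN, which is also an immediate target of MAP kinase signalling, had -3.20 and -2.63, and the second was -0.95 without probe sets ending in _s_at or _x_at. TNFRSF19, near background in HCT116, was lower there by at least 1.51 and 2.12 on the log2 scale with its brightest probe set. With the mean of all probe sets, SOX4 had -1.16 and -1.88 and TNFRSF19 had -0.84 and -1.15. MMP7, a matrix protease gene, was at or below 4.93 in HCT116 and Hkh-2 and at 7.60 ± 0.722 (SD, n = 3) in Hke3, higher there by at least 1.60. SOX9, which marks crypt progenitors, had differences of -0.75 and 0.15 and CD44 of -0.59 and -0.26, and CCND1 passed in neither, with -0.22 and -0.06. For SOX9 the first passed. The second value of CD44 passed at 0.0471 and did not pass without any 1 of 8 arrays, with limma adjusted p up to 0.189 without Hkh-2 replicate 2, nor with the mean of its probe sets (-0.11). EPHB2 was not analysed here.

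SP5 encodes a zinc finger factor whose promoter is a known target of beta-catenin, and it had means of 6.46 ± 0.293 in vehicle, 6.56 ± 0.13 with doxycycline, 8.26 ± 0.407 in Hke3 and 7.48 ± 0.222 in Hkh-2 (SD, n = 3 arrays each). Its differences were -1.79 (limma adjusted p = 7.35e-06) and -1.01 (limma adjusted p = 0.00108). Its RefSeq promoter window is shown because it holds the TCF/LEF core 3 times, and that of TCF7L2 because this member was lower in both lines and its window holds no copy. Both are 300-base windows of GRCh38.p14 on the plus strand, SP5 at chr2:170715087-170715386 and TCF7L2 at chr10:112949997-112950296, and capitals mark CTTTGAA or CTTTGAT on either strand.
SP5: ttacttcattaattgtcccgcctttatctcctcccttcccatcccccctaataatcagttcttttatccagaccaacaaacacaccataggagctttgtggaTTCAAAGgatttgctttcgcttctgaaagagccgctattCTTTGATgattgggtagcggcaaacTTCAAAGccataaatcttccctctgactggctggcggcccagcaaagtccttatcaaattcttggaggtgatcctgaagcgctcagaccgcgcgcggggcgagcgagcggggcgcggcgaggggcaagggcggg
TCF7L2: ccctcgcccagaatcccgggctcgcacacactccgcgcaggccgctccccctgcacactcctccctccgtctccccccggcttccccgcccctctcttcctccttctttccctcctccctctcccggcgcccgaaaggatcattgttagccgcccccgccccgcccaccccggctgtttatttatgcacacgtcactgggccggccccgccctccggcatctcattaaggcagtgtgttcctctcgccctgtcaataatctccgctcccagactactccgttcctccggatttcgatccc
The 3 copies in SP5 start at positions -148, -109 and -84 relative to the start site. Of 35116 promoter windows of this length, 2409 (6.86%) held at least 1 copy and 9 (0.0256%) held at least 3. Member windows are reported here for CTNNB1, TCF7, TCF7L2 and RNF43 only, and none of these 8 windows held a copy. No window of any other member is reported, so this count is not complete for the members and says nothing of the rest. A match is a description of letters, not of binding, and a window without one says only that these letters are not in it.

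CDH1, the junctional cadherin that binds beta-catenin at the membrane, was lower in HCT116 than in either line, with differences of -0.83 and -1.17. Of 6 measured genes of colon differentiation, vehicle was the higher for 2 and the lower for none against Hke3, and the higher for 1 and the lower for 1 against Hkh-2. KRT20, a keratin of differentiated surface cells, had means of 6.64 ± 0.183 in vehicle, 6.86 ± 0.197 in Hke3 and 8.86 ± 0.15 in Hkh-2 (SD, n = 3 arrays each), so that it was set apart in the same line as ZNRF3. CEACAM5, a surface antigen of colon epithelium, had differences of 0.30 and 0.29. The first did not pass without any 1 of HCT116 control vehicle replicates 1 and 2 and Hke3 replicates 1 and 2 (limma adjusted p between 0.0726 and 0.127). The second did not pass without any 1 of 8 arrays (limma adjusted p up to 0.14). GUCA2A, which encodes guanylin, was higher in vehicle than in Hke3 by at least 0.14, with Hke3 near background, though it did not pass without Hke3 replicate 1 (limma adjusted p = 0.0748).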

How the data were processed

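RNA of HCT116 control cells with vehicle or doxycycline, Hke3 and Hkh-2 was measured on 3 arrays per group. The deposited values are log2 summaries of probe sets that the authors computed with RMA, which the submitters' processing notes name. Its version, the chip definition and which arrays were normalized jointly are not given in the sources used here. Groups and replicate numbers came from the labels. Values of the gene recombined in Hke3 and Hkh-2 are not reported here.

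Gene symbols came from the platform annotation, which gives a single symbol for 41097 probe sets, and RefSeq holds the gene IDs of 41043 of these. A further 1801 name several genes, none of them a member, and 11777 are unnamed here. The brightest probe set on average stood for a gene, which was kept where at least 1 group mean reached 6. This left 12852 genes and 27344 probe sets. Means under 6 were treated as near background, and a difference from it is given as at least that from 6. This rule was added once the values had been seen. Linear models with a mean for each of the 4 groups were fitted to the 12 arrays in limma (version 3.58.1, R 4.3.3) with moderated variances from eBayes, and with Benjamini-Hochberg adjustment over all genes, or all probe sets, kept and a threshold of 0.05. The procedure was also run on simulated data, whose noise was independent between genes and between arrays. That run does not cover a deviation shared across genes, such as that of the arrays that stood apart. The smallest two-sided p of an exact permutation test between groups of this size is 0.1, and the number of arrays limits the precision.

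The labels give replicate numbers and do not say that these pair arrays. Deviations from the group means had r = 0.228, 0.212 and 0.453 within a number between vehicle and doxycycline arrays. Between vehicle and Hkh-2 arrays r was -0.0459, 0.422 and 0.337, and between vehicle and Hke3 arrays 0.355, -0.578 and -0.58. The genes named are all members, up to 4 genes of each list by the largest difference among those past the threshold against either line, SP5, NOTUM, DKK1, LEF1, SOX9, EPHB2, CCND1, CD44, APC and LGR4 whatever their values, and the 3 genes nearest to each member whose group means span at least 1. ODC1 and the markers were named after their values were seen. Members, lists and tests were chosen with earlier results of these data known. Alternatives changed the choice of probe sets, the filter, the normalization, the arrays in the fit, the prior, the replicate block and the pooling of HCT116 arrays, or left out each array in turn or the pair that stood apart. Running them on the lists and on the named pathway genes was added after seeing the data. Promoter windows are those of RefSeq on GRCh38.p14.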

Additional observations from a re-analysis of the deposited data

Results flagged for a closer look

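The effects of Hke3 and Hkh-2 against the same vehicle arrays differed, tested in limma as Hke3 minus Hkh-2 at an adjusted p under 0.05, for 3 members and 23 other named genes of the lists. Values are log2 differences, Hke3 minus Hkh-2. Among the members these were AXIN2 (0.951), ZNRF3 (-1.55) and MYC (-1.32). Among ligands, secretion factors and receptors they were WNT16 (-0.741), WLS (0.517), LGR4 (1.29), FZD2 (0.607), FZD3 (-0.579) and ROR2 (-0.485). Among inhibitors they were NKD2 (-0.651), KREMEN1 (-0.632) and TPBG (-0.26). Among other reported targets they were SP5 (0.782), SOX4 (-0.835), SOX9 (0.896), TNFRSF19 (-0.607), CD44 (0.332), MMP7 (2.71) and JUN (0.568). Among partners of MYC and genes it induces they were MAX (-0.326), MXI1 (-0.194), FBL (-0.518), SRM (-0.664) and POLR1B (-0.697). The cadherin gene CDH1 differed by -0.341 and the keratin gene KRT20 by -2. The value of MMP7 stands against a Hkh-2 mean near background and is at least 1.60 when counted from 6. MXI1 passed under 8 of 23 alternatives. TPBG passed under 9 of 23. CD44 did not pass without Hkh-2 replicate 3 (limma adjusted p = 0.056), nor CDH1 without Hke3 replicate 1 (0.0588) or Hkh-2 replicate 1 (0.0707). With the mean of all probe sets, the difference of POLR1B was -0.12 (limma adjusted p = 0.225), that of WNT16 -1.38, of CD44 0.71, of KREMEN1 -0.42 and of TNFRSF19 -0.31. Leaving out any 1 Hke3 array moved WNT16 to between -1.93 and -2.14. Without probe sets ending in _s_at or _x_at, MAX had -0.17 and did not pass (limma adjusted p = 0.311), and JUN had 1.22.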

How the results depend on the processing

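Over 23 alternatives, no called difference of a member lost its call or turned, 9 of 624 member results passed that had not, and a value past the threshold in neither setting was not counted as turned. The sizes that moved most were those of AXIN2 and TCF7L2 with the mean of all probe sets, given beside those results. Of 86 calls of named pathway genes, 57 held under every alternative run. TPBG turned with the mean of its probe sets against Hke3 (-0.0327) and between the lines (0.13), MAX against Hke3 with that mean (-0.13) and without sets ending in _s_at or _x_at (-0.0298), POLR1B against Hkh-2 under the same settings (0.36 and 0.38), and WLS against Hkh-2 without those sets (0.27). The cause was not tested. Leaving out sets ending in _s_at or _x_at reduced the probe sets called from 12244 to 7137 against Hke3, from 9739 to 5630 against Hkh-2 and from 9836 to 5825 between the lines, since fewer were tested, and left MYC unmeasured. With the replicate block 5885, 4447 and 4871 genes were called in place of 6146, 4627 and 5118, doxycycline kept 0, and no call of a member changed. The block ended the calls of TLE2 (adjusted p = 0.0523) and CEACAM5 (0.0639) against Hkh-2 and of TPBG (0.0527) and MXI1 (0.0675) between the lines. Replicate numbers matched the array of another group with the most similar deviations for 6 of 12 arrays, all of them doxycycline or Hkh-2 arrays. Whether this is more than chance gives was not tested. Values near 6 limit RNF43, NKD1, LGR5 and ASCL2.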
